A study of Drosophila melanogaster with 136 samples.

Results

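Cell cycle and DNA replication genes were followed across the tissues of the fruit fly Drosophila melanogaster. The 39 genes were taken from a list of symbols, and each was matched to the probe sets annotated to that symbol and to no other gene. Of the 39, 28 had such a probe set, out of 11982 genes represented in all. Mcm7, Orc6, CycA, stg, Cdk1, aurA, polo, geminin, dap, BubR1 and RnrS were not analysed here. The measured genes fall into 14 replication and G1/S genes (of 19 listed) and 14 mitotic and meiotic genes (of 20 listed). Pen, which encodes an importin alpha, was counted in the mitotic and meiotic set. They were measured with Affymetrix oligonucleotide arrays on 136 arrays in 34 groups of 4, where each group is a dissected tissue, a whole animal or a cultured cell line.

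All animals were of the wild-type Canton-S strain and none carried a transgene. Adults were 7 days old and larvae were in the third instar, feeding except where wandering is stated. An array's RNA was pooled from many animals. Each ovary array took 30 females and each testis array 60 males. Each adult brain and each adult salivary gland array took 60 females and 60 males. Adult fat body arrays took 30 of each sex, adult midgut arrays 25 of each and whole fly arrays 12 of each. Each larval central nervous system (CNS) and each larval salivary gland array took 100 larvae, whereas the larval fat body, larval midgut, whole larva and wandering larval fat body arrays took 30 each. S2 cells, a Drosophila cell line also called Schneider cells, were at passage 5. The whole fly and whole larva contain the tissues they were compared with. No label ties an array to particular animals, so the p-values measure only the spread between these samples.

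DNA is copied once per cycle from origins licensed by the origin recognition complex, Cdc6 and Dup, which load the Mcm helicase. Mitosis then needs the B-type cyclins, the chromosomal passenger complex, the spindle checkpoint and the anaphase-promoting complex. Many fly tissues leave out mitosis and repeat the replication step alone in the endocycle, which makes the polytene chromosomes of the larval salivary gland and the polyploid nurse and follicle cells of the ovary. The testis holds few mitotic cells beside a large population of spermatocytes in a long meiotic prophase, and the larval CNS holds dividing neuroblasts beside neurons.

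Values are array signals on the deposited linear scale, scaled so that each array's trimmed mean was 100.004. That mean ran from 100.002 to 100.006 before scaling. Because a probe's brightness differs from probe to probe, each gene is compared only with itself between groups. Median probe signals of single arrays ran from 4.84 to 28.78, and the number of arrays limits the precision. Of the 136 arrays, 132 correlated best with their own group. Among the groups tested here the exception was replicate 4 of the larval fat body, which was most like the wandering larval fat body. Comparisons that use it were also fitted without it. Outside those groups, thoracic muscle replicate 4 was most like the redone mated spermatheca, and replicate 2 of that group most like thoracic muscle. Replicate 4 of the first mated spermatheca was most like the virgin one. These arrays stay in the group means, correlations and figures. Marker genes matched the labels of the main groups. Summed signals of 11 neuroblast markers were 4263 to 4926 in the larval CNS and 88.5 to 117 in the larval salivary gland. The 7 measured spermatocyte markers summed to 10600 to 12980 in the testis and to 16.2 to 23.2 in the ovary. The 11 larval salivary gland markers, mostly glue proteins, summed to 73230 to 98640 in that gland, which also carried 5 of 6 fat body markers at a signal of at least 100. The 10 measured germline markers summed to 5116 to 5300 in the ovary, with 8 at a signal of at least 100. In the testis they summed to 764 to 829, with 2 at that signal, and in S2 cells to 1554 to 1592. Of these markers, vas was dim in both gonads, with means of 24.6 in the ovary and 5.88 in the testis.

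Across the 34 groups the ovary gave the highest signal for 23 of the 28 measured genes, and for 20 of these no array of the second group overlapped. The same count was not made over all probe sets, so these numbers only describe the members. Mcm6, aurB and Bub3 were highest in the larval CNS, and Klp61F in S2 cells. All 4 overlapped with the next group. Pen, the importin alpha Pendulin, was highest in the testis without overlap. In the larval salivary gland Cdc6 and CycD had their second-highest signals of all groups.

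The replication and the mitotic genes were spread differently over tissues. A gene was counted as present at a substantial level where its mean was at least 25% of its own highest group mean. By that count the ovary held all 14 replication and all 14 mitotic genes, and the larval CNS held 13 and 12. S2 cells held 8 of each. The larval salivary gland held 8 replication genes and 3 mitotic genes, namely fzr, Bub1 and Bub3. The testis held 0 replication genes and 5 mitotic ones, namely Incenp, fzy, Bub1, mad2 and Pen. The median gene stood at 26.5% of its own highest level for replication and 2.68% for mitosis in the larval salivary gland. In the testis those medians were 3.35% and 21.0%. Larval trachea held 4 of each, whole fly 13 and 14, and no other group held more than 1 replication or 2 mitotic genes.

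**Figure D1:**
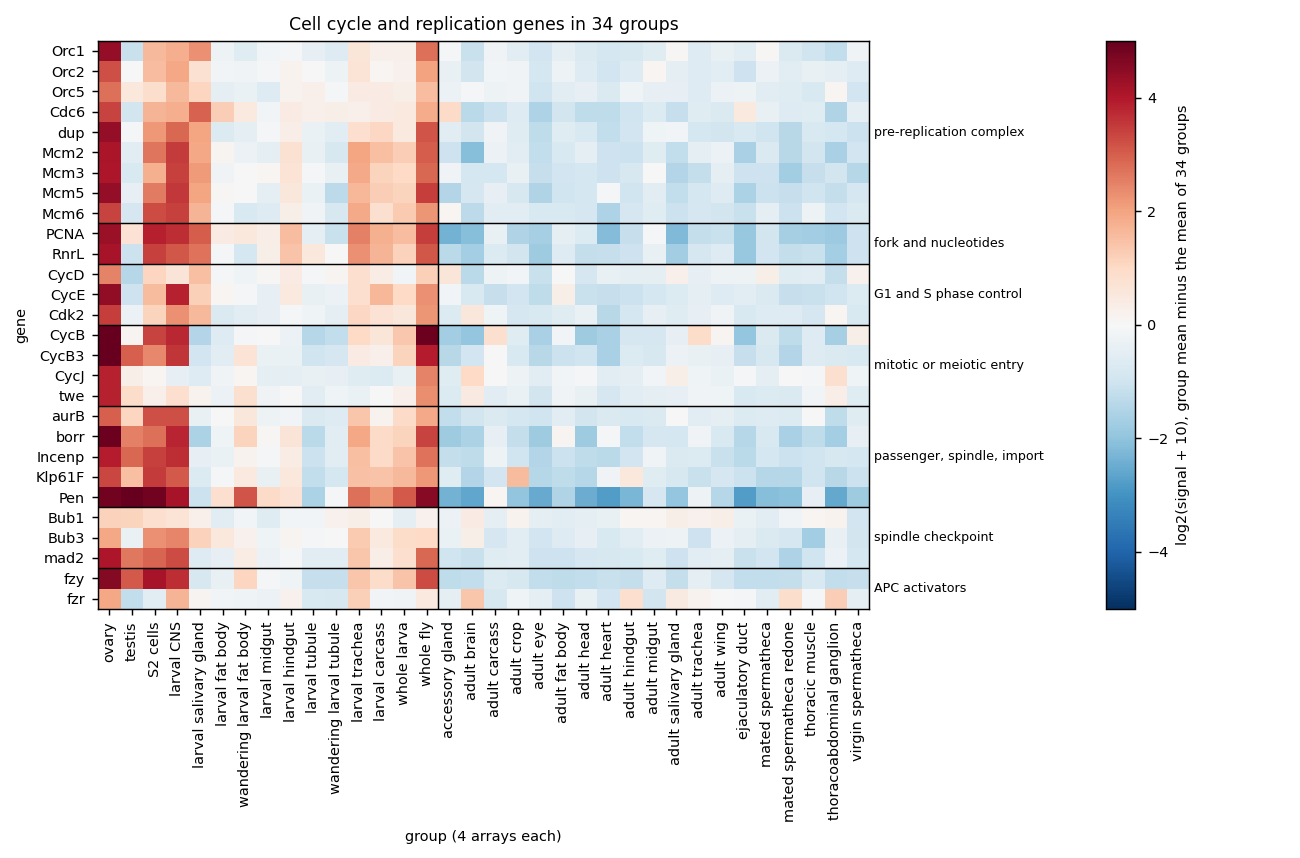
Each row is one of the 28 measured genes, grouped by role, and each column one of the 34 groups. Colour gives the group's mean log2(signal + 10) over 4 arrays minus the gene's mean over all groups. The ovary column is the highest for 23 genes. The larval salivary gland column is red for replication genes and blue for most mitotic genes. The testis column is blue for most replication genes, though not for PCNA and Orc5.

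Single genes show the same tissues array by array. For Mcm2, a helicase subunit, the ovary arrays gave 901.5, 855.4, 932.9 and 888. The testis arrays gave 32.1, 25.0, 24.2 and 27.95, and the larval CNS arrays 603.8, 622.8, 590.2 and 560.1. The larval salivary gland arrays gave 190.9, 225.1, 173.6 and 192.8, and the adult salivary gland arrays 3.75, 12.6, 24.5 and 14.9. The testis and the adult salivary gland overlapped at their edges, and the other 3 groups stood clear of them and of each other. For CycB, a mitotic cyclin, the order was another one. The ovary arrays gave 2846, 3086, 2868 and 2880, and the larval CNS arrays 881.5, 656.6, 885.8 and 758.6. The larval salivary gland arrays gave 14.1, 10.6, 14.5 and 7.11. The gland lay far under the CNS on every array for CycB, while for Mcm2 it lay between the CNS and the adult gland. The anaphase-promoting complex activator fzr, the fly Cdh1, was high outside dividing tissue too. Its adult brain arrays gave 492.9, 486.2, 469.7 and 394.2, which overlapped the larval CNS arrays at 602, 477.8, 662.7 and 572.5.

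**Figure D2:**
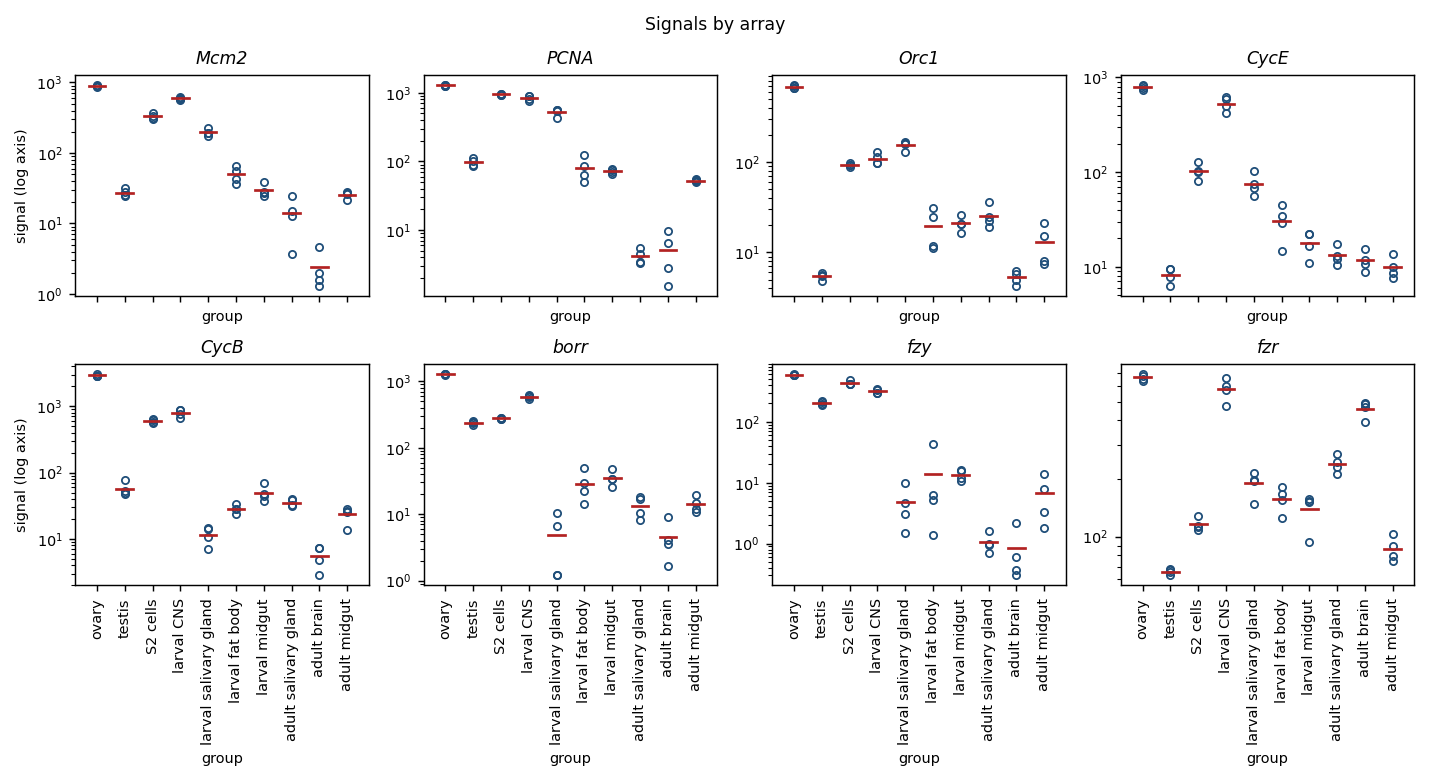
Signals of 8 genes on a log axis in 10 groups, with an open circle for each of the 4 arrays and a bar at the group mean. Mcm2, PCNA and Orc1 remain high in the larval salivary gland while CycB, borr and fzy there lie near the bottom of the range, and fzr is high in the adult brain.

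The ovary against the whole fly compares an organ of germline and polyploid somatic cells with the body it came from. Of the 28 genes, 22 were higher in the ovary, 0 were lower and 6 were not called. A call needed an adjusted p (limma, Benjamini-Hochberg over all probe sets tested) under 0.05 and at least a 2-fold change. Over all 13473 probe sets tested, 12.5% were higher and 29.5% lower. Differences are of log2(signal + 10), where 10 is the pseudocount. The median log2 difference was 1.21 over the 28 genes and −0.1 over all probe sets. All 28 passed the filter on low signals in both groups. Fewer cells of a type and less RNA per cell cannot be told apart in such bulk samples, in this or any other comparison.

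By role, the G1/S gene CycE, whose cyclin drives S phase with Cdk2, rose most. Its ovary arrays gave 773.9, 839, 819.3 and 744.8, and the whole fly arrays 147.8, 178.5, 178.3 and 179.8. The 2 groups were far apart, with a log2 difference of 2.15 ± 0.09 (SE, adjusted p = 6.7e-09). Among licensing genes Orc1, an origin recognition subunit, rose by 1.61 ± 0.11, and Cdc6, a helicase loader, by 1.51 ± 0.17. The helicase subunits Mcm2, Mcm3 and Mcm6 rose by 1.06 to 1.20, whereas Mcm5 was not called at 0.95 ± 0.09. PCNA, the sliding clamp of the fork, was not called either at 0.85 ± 0.07. RnrL, the large subunit of ribonucleotide reductase, rose by 1.02 ± 0.11, just past the threshold. Without replicate 3 or 4 of the whole fly its value was 0.95 or 0.99, and the call was lost. Without replicate 2 of the whole fly Mcm5 passed at 1.01.

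Among mitotic and meiotic genes of the ovary, borr, which encodes the passenger subunit Borealin, rose by 1.56 ± 0.10. The meiotic Cdc25 phosphatase gene twe rose by 1.53 ± 0.10 and CycJ, a cyclin gene known from ovary and early embryo, by 1.35 ± 0.12. The ovary arrays of twe gave 363, 377.3, 361.4 and 328.8, and those of CycJ gave 254.3, 249.6, 241.4 and 246.2. In no other group except the whole fly did either gene reach 25% of its ovary level. CycB, Bub1, Bub3 and Pen were not called, at 0.71, 0.94, 0.93 and 0.29. Pen overlapped between the groups, and the other 3 did not. After quantile normalization Mcm5, PCNA, Bub1 and Bub3 passed, at 1.14, 1.29, 1.04 and 1.08. That normalization moved the median over all tested probe sets from −0.045 to 0.415 and the share of calls that were higher from 29.7% to 56.3%. The fzy value of 1.31 ± 0.12 comes from its brightest probe set. With the mean of its 3 probe sets it was 0.36 and not called.

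Other genes of the same processes moved the same way in the ovary. Of 38 further replication genes tested, 23 were higher, 0 lower and 15 not called, with a median of 1.03. Of 53 further mitosis genes, 40 were higher and 0 lower, with a median of 1.22. Of 34 further cell cycle regulators, 20 were higher and 0 lower. Meiosis genes were mixed, with 6 higher, 4 lower and 17 not called of 33 measured. The 7 follicle cell markers summed to 18880 to 22690 in the ovary, and their part in these differences was not tested.

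The testis gave the reverse for replication. Against the whole fly 0 genes were higher, 19 lower and 9 not called. Over all 12697 probe sets tested, 20.3% were higher and 40% lower. All 14 replication and G1/S genes were lower, with a median log2 difference of −3.11. Of the 14 mitotic and meiotic genes 5 were lower, with a median of −0.84. The median over all probe sets was −0.19. The 14 replication genes stood at a median of 3.35% of their own highest level in the testis. The other adult tissues outside the ovary stood at 1.13% in the eye to 3.89% in the midgut, and the whole fly at 41.6%. That low level was therefore not particular to the testis. Of the 28 genes, 27 passed the low-signal filter in both groups. The other passed through the whole fly alone and so could only be called lower.

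RnrL fell by 4.20 ± 0.12 (SE) on the log2 scale, Orc1 by 3.89 ± 0.11, Mcm5 by 3.87 ± 0.10 and Mcm3 by 3.66 ± 0.10. Orc1 gave 5.85, 5.44, 4.76 and 5.64 in the testis and 196.4, 268.4, 223.4 and 194.1 in the whole fly. Every testis array was near background for it. Orc5, another origin recognition subunit, was the replication gene that fell least, by 1.02 ± 0.11. Its call was lost without testis replicate 1 or 3 or whole fly replicate 1 or 2, at −0.96 to −0.99, and under quantile normalization, at −0.54.

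Among mitotic genes CycB fell by 4.77 ± 0.13 (adjusted p = 6.1e-11). Its testis arrays gave 52.5, 49.9, 47.2 and 77.1, against 1634 to 1853 in the whole fly. CycJ fell by 2.19, fzr by 1.72, twe by 1.40 and the checkpoint gene Bub3 by 1.32. The passenger genes aurB, borr and Incenp, the spindle kinesin-5 gene Klp61F and the activator fzy, the fly Cdc20, were not called. Their values ran from −0.84 for aurB to 0.16 for Incenp. CycB3, at −0.94, passed the threshold as lower without whole fly replicate 4. Pen gave 3405, 3563, 3126 and 2868 in the testis against 1612 to 2129 in the whole fly. Its arrays did not overlap, but its log2 difference of 0.83 ± 0.11 stayed under the 2-fold threshold.

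Quantile normalization moved the testis comparison's median over all tested probe sets from −0.63 to −0.149 and its share of higher calls from 33.7% to 45.5%. Under it Bub1 and Pen were called higher, at 1.5 and 1.15, CycB3 and borr were called lower, at −1.39 and −1.18, and twe was not called, at −0.98. All replication and G1/S genes other than Orc5 stayed lower. Of 39 further replication genes 26 were lower and 1 higher, and of 53 further mitosis genes 18 were lower and 3 higher. Meiosis genes again split, with 14 higher and 10 lower.

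Set directly against the ovary, the testis had 0 genes higher, 26 lower and 2 not called, while 22.9% of all tested probe sets were higher and 32.5% lower. This comparison shares its testis and ovary arrays with the comparisons above. Of the 28, 1 passed the low-signal filter only through the ovary and so could only be called lower. Among the lower genes were Orc1 at −5.50 ± 0.06, CycB at −5.48 ± 0.12, CycE at −5.46 ± 0.08 and RnrL at −5.21 ± 0.07. The testis means of Orc1, 5.42, and of CycE, 8.24, lay under the pseudocount of 10, so the size of these values depends on it and they have no order. The replication genes had a median of −4.38 and the mitotic genes of −2.01. Incenp was the called gene with the smallest difference, −1.08 ± 0.07, and with a pseudocount of 40 it was −0.98 and not called. The checkpoint kinase gene Bub1 was not called. Its testis arrays gave 174, 183.1, 173.3 and 166.3, and its ovary arrays 189.5, 174.9, 174.5 and 177.2. They overlapped, with a log2 difference of −0.04 ± 0.06 (adjusted p = 0.59). Pen was the other gene not called, at 0.53 ± 0.08. With the mean of 3 probe sets fzy was not called, at −0.42. With quantile normalization the median over all tested probe sets went from −0.153 to −0.462.

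Among meiosis genes outside the 28, bol, which is needed for male meiosis, had a mean of 1778 in the testis and 1.42 in the ovary. Its log2 difference was 7.30. Of the meiosis list 13 genes were higher in the testis than in the ovary and 12 lower.

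In the larval CNS nearly all members were above the whole larva. Of the 27 genes tested 25 were higher, 0 lower and 2 not called. CycJ was not tested, because it was near background in both groups. Over all probe sets tested, 27.4% were higher and 22.5% lower. The median log2 difference was 2.03 over the measured members and 0.02 over all probe sets. CycE rose by 2.86 ± 0.13 (SE, adjusted p = 4.7e-09), borr by 2.70 ± 0.07 and CycB3 by 2.46 ± 0.09. Mcm3 rose by 2.44, and Mcm5 and the checkpoint gene mad2 by 2.42 each. The 4 borr arrays of the CNS gave 611, 576.9, 626.2 and 547.2, and those of the whole larva 81.6, 78.4, 85.9 and 82.3. The arrays of one group lay within a narrow band in both cases. CycD, a G1 cyclin gene, and twe were not called, at 0.77 ± 0.10 and 0.59 ± 0.13. The smallest called difference was that of Pen, 1.04 ± 0.08, which at 0.99 lost its call without whole larva replicate 4. Of 39 further replication genes 27 were higher, and of 53 further mitosis genes 48, with 0 lower in either list.

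Against the adult brain, the larval CNS had 24 genes higher, 1 lower and 3 not called. Over all probe sets tested, 13.8% were higher and 13.8% lower. The median difference of the measured members was 4.32, and that of all probe sets −0.02. Of the 28, 11 passed the low-signal filter only through the CNS and so could only be called higher, and this count is a description. Pen gave 1323, 1386, 1418 and 1322 in the CNS and 3.97, 2.34, 2.89 and 3.63 in the brain. PCNA gave 822.5, 905.8, 891.4 and 772.4 in the CNS and 6.44, 2.83, 1.52 and 9.79 in the brain. The brain was near background for both, and the log2 differences were 6.70 ± 0.07 and 5.85 ± 0.16. For CycB, Mcm2 and borr the values were 5.69, 5.61 and 5.39. The brain means of all 5 genes lay under the pseudocount of 10, so the size of these values depends on it and they have no order.

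The genes not called between the CNS and the adult brain were twe, fzr and Bub1, at 0.40, 0.32 and 0.29. All 3 had adjusted p-values under 0.05 but changes smaller than 2-fold, and the fzr arrays overlapped. CycJ was lower in the CNS, by −1.40 ± 0.15, with a mean of 25.9 in the brain and 3.77 in the CNS. That call was lost with a larger pseudocount and with a stricter filter. The neuroblast markers ase, wor, mira and pros had means of 508, 447, 517 and 1228 in the larval CNS. The 11 neuroblast markers summed to 1012 to 1252 in the adult brain, against 4263 to 4926 in the CNS. Their part in these differences was not tested.

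The larval salivary gland had most replication genes and few mitotic ones. Against the larval CNS, 17 genes were lower, 1 was higher and 9 were not called of 27 tested. Over all probe sets tested, 11.7% were higher and 21.4% lower. Of 14 replication and G1/S genes 6 were lower and 7 not called, with a median log2 difference of −0.78. Of 13 mitotic and meiotic genes tested 11 were lower and 2 not called, with a median over all 14 of −3.82. The median over all probe sets was 0.03. Of the 28, 2 passed the low-signal filter only through the CNS and so could only be called lower.

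Cdc6 was the gene that was higher in the gland than in the CNS. Its gland arrays gave 218.4, 207.9, 194.7 and 307.5, and its CNS arrays 96.6, 106.1, 107.4 and 82.9. All gland arrays were above all CNS arrays, by a log2 difference of 1.15 ± 0.15 (SE, adjusted p = 4.9e-05). With a pseudocount of 40 it was no longer called. CycD and Orc1 were not called at 0.86 ± 0.10 and 0.46 ± 0.12, and RnrL, Orc5, Cdk2, PCNA and dup, which encodes the fly Cdt1, were not called at −0.39 to −0.88. The helicase subunits were lower by −1.28 to −1.72. CycE was the replication or G1/S gene with the largest difference. Its gland arrays gave 102.3, 68.1, 74.4 and 55.3 against 614.2, 417.2, 584.7 and 493.3 in the CNS, and it fell by 2.67 ± 0.18.

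The mitotic genes were further apart. For borr the gland arrays gave 1.23, 1.20, 10.29 and 6.55, against 547.2 to 626.2 in the CNS, and the gene fell by 5.39 ± 0.19. For fzy the gland arrays gave 10.04, 3.11, 4.73 and 1.52, and the CNS arrays 300, 335.7, 340.2 and 299.7. Both genes were near background on every gland array. CycB fell by 5.23, Pen by 5.21, CycB3 by 4.53, fzy by 4.50, Incenp by 4.10, mad2 by 3.9, Klp61F by 3.73 and aurB by 3.60. The other called genes fell less, fzr by 1.57 ± 0.14 and Bub3 by 1.28 ± 0.08. Bub1, at −0.46 ± 0.09, and twe, at −0.69 ± 0.14, were not called. The fzr mean in the gland was 189 ± 28.7 (SD, n = 4), beside a whole larva mean of 150 ± 15.6.

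Beyond the 28, the lists differed in the same manner between the gland and the CNS. Of 38 further replication genes tested 0 were higher and 8 lower, with a median of −0.36. Of 53 further mitosis genes 45 were lower and 2 higher, with a median of −2.01. The 2 higher genes were pbl, a regulator of cytokinesis, at 1.62, and svr, at 1.82. The gene svr counts only because it stood on the list, and no role in mitosis is claimed for it. Of the list's 53 genes the other 6 were not called. The Cdk-binding gene Cks30A had a mean of 10.6 ± 4.09 in the gland and 797 ± 61.2 in the CNS, a log2 difference of −5.31. Quantile normalization moved this comparison's median over all tested probe sets from −0.111 to 0.085 and the share of higher calls from 35.4% to 45.7%. Under it CycD was called higher at 1.38, PCNA lower at −1.18, and Orc2 was no longer called.

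The whole larva gave a second reference for the gland. Here 8 genes were higher, 9 lower and 10 not called, where 13% of all tested probe sets were higher and 23.6% lower. Of the 28, 2 passed the low-signal filter only through the whole larva and so could only be called lower. The split fell along the sets as defined above. All 8 higher genes were of the replication and G1/S set. All 9 lower ones were of the mitotic and meiotic set, in which the importin gene Pen is counted. Cdc6 rose by 2.46 ± 0.14, Orc1 by 2.03, CycD by 1.63, RnrL by 1.56, dup by 1.49, PCNA by 1.48, Mcm3 by 1.16 and Cdk2 by 1.09. Pen fell by 4.18 ± 0.13, CycB by 2.83, borr by 2.68, Klp61F by 2.29, fzy by 2.23, CycB3 by 2.08, Incenp by 1.83, mad2 by 1.48 and aurB by 1.33. The replication genes had a median of 1.12 and the mitotic genes of −1.65, against 0.06 over all probe sets. With the mean of its 3 probe sets fzy was not called, at −0.44. Of 38 further replication genes tested 11 were higher and 0 lower. Of the further mitosis genes 12 were lower and 3 higher, namely pbl at 2.75, the kinetochore gene Zw10 at 2.24 and svr at 1.24. Here too svr counts only as a listed gene.

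Scaling changed some of the gland's calls against the whole larva. Under quantile normalization the median of all tested probe sets moved from 0.129 to 0.367 and the share of higher calls from 35.5% to 54.4%. The calls lost with it were those of aurB, at −0.76, and mad2, at −0.93, and Mcm5, Orc2, Orc5 and Bub1 became higher. A pseudocount of 40 ended the calls of Mcm3, Cdk2, aurB and mad2, at 0.92, 0.81, −0.69 and −0.88. Both gland comparisons use the same gland arrays. The fat body markers in the gland summed to 9788 to 10640, against 2427 to 2859 in the CNS and 37240 to 47560 in the larval fat body. Their part in the gland's values was not tested.

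**Figure D3:**
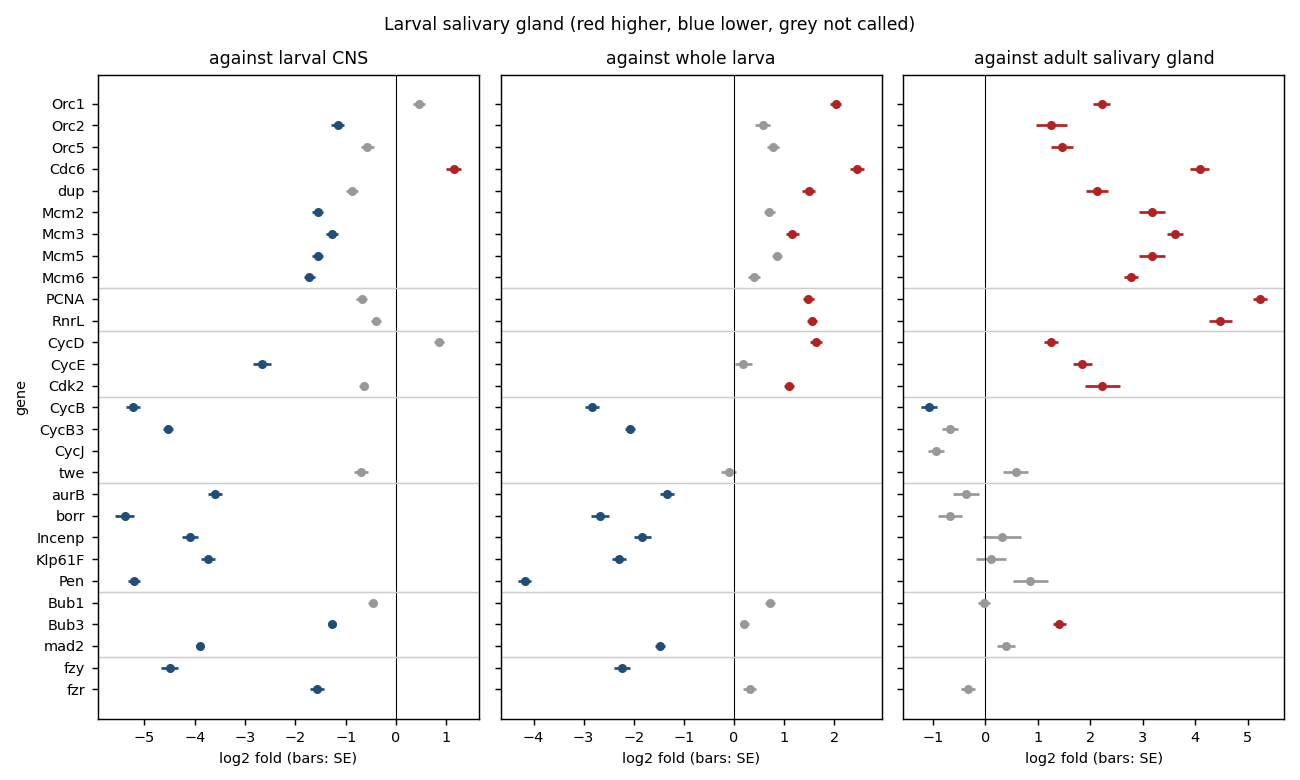
Log2 fold of each gene in the larval salivary gland against the larval CNS, the whole larva and the adult salivary gland, with bars for the SE and 4 arrays a group. Red marks genes that were higher, blue lower and grey not called. Most of the upper rows (licensing, fork, G1/S) lie to the right of most of the lower rows, and Cdc6 is higher in all 3 panels.

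The adult salivary gland was low for the replication genes. In the larval against the adult gland 15 genes were higher, 1 lower and 11 not called of 27 tested, with fzy near background in both and not tested. Over all probe sets tested, 9.14% were higher and 12.8% lower. All 14 replication and G1/S genes were higher in the larva, with a median of 2.51 against −0.21 over all probe sets. Of the mitotic genes Bub3 was higher, by 1.41 ± 0.12, and CycB lower. The 14 mitotic genes had a median of 0.04. With a pseudocount of 40 the calls of Orc2, Orc5 and CycB were lost, at 0.58, 0.95 and −0.55. Of the 28, 8 passed the low-signal filter only through the larval gland and so could only be called higher. Another 2 passed only through the adult gland and could only be called lower, and these counts are a description.

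PCNA gave 545.7, 571.1, 428.1 and 569.2 in the larval gland and 3.35, 3.47, 5.57 and 4.53 in the adult gland. The adult gland was near background, and the log2 difference was 5.24 ± 0.13 (adjusted p = 3.9e-09). For RnrL it was 4.48, for Cdc6 4.09, for Mcm3 3.62, for Mcm2 and Mcm5 3.17 each and for Mcm6 2.78. Sizes against an adult signal under the pseudocount have no order. CycB had a mean of 11.6 ± 3.44 in the larval gland and 35.3 ± 4.37 in the adult one, and it fell by 1.08 ± 0.15. Without larval replicate 4 it was −0.97 and not called. Of 39 further replication genes 25 were higher and 1 lower, with a median of 1.39. Thymidylate synthase, Ts, and dUTPase, which both serve dTTP supply, rose by 3.49 and 3.48. The origin-firing kinase gene Cdc7 was the lower one, by −1.48. Of the further mitosis genes 8 were higher, 0 lower and 43 not called. The median over all tested probe sets went with quantile normalization from −0.169 to 0.011 and the share of higher calls from 41.7% to 51.9%. Under it twe, mad2 and Pen were called higher, at 1.21, 1.06 and 1.37.

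Fat body and midgut are also polyploid in the larva. Against the larval CNS the larval fat body had 0 genes higher, 25 lower and 2 not called, where 12.1% of all tested probe sets were higher and 28.4% lower. The larval midgut had 0 higher, 26 lower and 1 not called, where 14.9% were higher and 31.4% lower. These 2 comparisons share the CNS arrays with the gland and S2 comparisons. The medians of the members were −3.25 and −3.24. Of 53 further mitosis genes 50 were lower in the fat body and 51 in the midgut, and of the further replication genes 32 and 34. Both tissues were low for replication as well as mitotic genes. Mcm2 had a mean of 49.6 ± 13.0 in the fat body, 29.7 ± 6.49 in the midgut, and 594 ± 26.4 in the CNS. PCNA had means of 81.0 ± 33.0, 73.0 ± 5.27 and 848 ± 62.2 in the same order.

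The genes not called in the fat body were Cdc6, at −0.57 ± 0.15, and CycD, at −0.76 ± 0.15, and in the midgut CycD, at −0.58 ± 0.09. In the midgut Cdc6 was lower, at −1.94 ± 0.10. The midgut's lower twe call, at −1.04, was lost without midgut replicate 2 or CNS replicate 1 or 4. Without larval fat body replicate 4 the fat body count was again 25 lower. Quantile normalization moved the medians over all tested probe sets from −0.212 to −0.024 for the fat body and from −0.264 to −0.122 for the midgut. The shares of higher calls went from 30.0% to 41.2% and from 32.1% to 42.6%. In both tissues twe and Bub1 then lost their calls.

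Larva and adult were also compared within each of these tissues. The larval against the adult fat body had 4 genes higher, 0 lower and 23 not called, with 6.67% of all tested probe sets higher and 9.37% lower. Of the 28, 4 passed the low-signal filter only through the larval fat body and so could only be called higher. The genes called were Cdc6 at 2.15 ± 0.19, Bub3 at 1.19 ± 0.10, Klp61F at 1.18 ± 0.22 and Mcm5 at 1.05 ± 0.18. Mcm5 lost its call at 0.90 without adult fat body replicate 1. Pen was not called at 2.37 ± 0.86. Replicate 4 of the larval fat body stood at 833.8 and the other replicates at 49.8 to 87.9. Without that array Pen was called higher, at 1.51. It was also called without larval replicate 2, at 2.79, with quantile normalization, at 2.51, and at 2.37 with a filter at the 60th percentile or with 1 fit of all groups. Leaving out another single array called fzr at 1.01, PCNA at 1.02 or Mcm2 at 1.07. The larval against the adult midgut had 1 gene higher, 0 lower and 26 not called, with 4.52% of all tested probe sets higher and 5.06% lower. The higher count was near the array's share and is no result about the members as a set. Of the 28, 2 passed the filter only through the larval midgut and so could only be called higher. The gene called was Pen, at 1.78 ± 0.22. Bub1 was not called at −0.70 ± 0.12, with a mean of 45.9 in the larval and 80.0 in the adult midgut. The gut precursor gene esg had means of 213 in the larval and 286 in the adult midgut.

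The difference between tissues in the larval to adult change was tested directly, as the salivary gland's change minus the midgut's. Of the 28 genes 14 had a larger value in the gland, 3 a smaller one and 11 were not called, where 11.2% of all tested probe sets were larger and 15.2% smaller. Of the replication and G1/S genes 13 of 14 were larger in the gland, with a median of 2.54 against −0.19 over all probe sets. PCNA was at 4.83 ± 0.15 (SE, adjusted p = 3e-13), RnrL at 3.84, Cdc6 at 3.54 and Mcm3 at 3.50. The adult gland means of PCNA, Cdc6 and Mcm3, 4.23, 4.21 and 4.1, lay under the pseudocount, so these values have no order. Of the 28, 16 passed the low-signal filter in all 4 groups, and the counts are a description. CycD, at 0.70 ± 0.16, was the replication or G1/S gene not called. The smaller values were those of CycB, borr and CycB3, at −1.91, −1.58 and −1.14. A pseudocount of 40 ended the calls of Orc2, CycE, CycB3 and borr, at 0.67, 0.89, −0.52 and −0.73. Leaving out a single array called aurB, fzr or Pen smaller, at −1.02 to −1.24. With quantile normalization the median over all tested probe sets went from −0.151 to 0.018.

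The wandering stage follows feeding at the end of larval life. In the wandering against the feeding larval fat body 1 gene was higher, 0 lower and 27 not called, with 3.96% of all tested probe sets higher and 4.68% lower. The gene was twe, at 1.08 ± 0.27 (SE, adjusted p = 0.025), and with a pseudocount of 40 it was 0.55 and not called. Its wandering arrays gave 21.7, 51.5, 43.7 and 26.4, and its feeding arrays 8.57, 7.56, 9.55 and 20. The lowest wandering array lay just above replicate 4 of the feeding group. Pen, fzy, borr and CycB3 had values of 2.28 ± 0.94, 1.44 ± 0.58, 1.31 ± 0.40 and 1.26 ± 0.37 and were not called. The count of 1 higher gene was near the array's share. Of the 28, 1 passed the low-signal filter only through the wandering fat body and so could only be called higher.

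Markers of other tissues differed between these arrays too. The 11 larval salivary gland markers summed to 112.1, 100.1, 659.7 and 69.4 on the feeding arrays and to 17860, 147, 10680 and 15000 on the wandering ones. The 7 spermatocyte markers summed to 59.6, 42.4, 83.4 and 1526 on the feeding arrays and to 425.5, 4638, 1581 and 1232 on the wandering ones. Pen on the same arrays gave 87.9, 49.8, 72.7 and 833.8, then 207, 2192, 791.6 and 575.7. The 5 arrays with the highest spermatocyte marker sums had the 5 highest Pen signals. The testis-specific tubulin gene betaTub85D gave 642.5 on feeding replicate 4 and 3.09 to 9.25 on the other feeding arrays, and on the wandering arrays 135.3, 2018, 561.3 and 442.2. The part of gland or male germ cells in the result was not tested. Without feeding replicate 4, 5 genes were higher: twe, Pen at 3.13, fzy at 1.92, borr at 1.55 and CycB3 at 1.49. Without feeding replicate 1, 2 or 3, or without wandering replicate 2 or 3, 0 genes were higher. Mcm2 gave 30.3 to 39.7 on the wandering arrays and 35.8 to 64.5 on the feeding ones. Those ranges overlapped. Under quantile normalization the median of all tested probe sets moved from 0.089 to −0.121 and the share of higher calls from 45.8% to 32.9%. Under it twe was not called, at 0.87, CycB3 and borr were higher, at 1.12 and 1.11, and Mcm6 was lower, at −1.14.

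**Figure D4:**
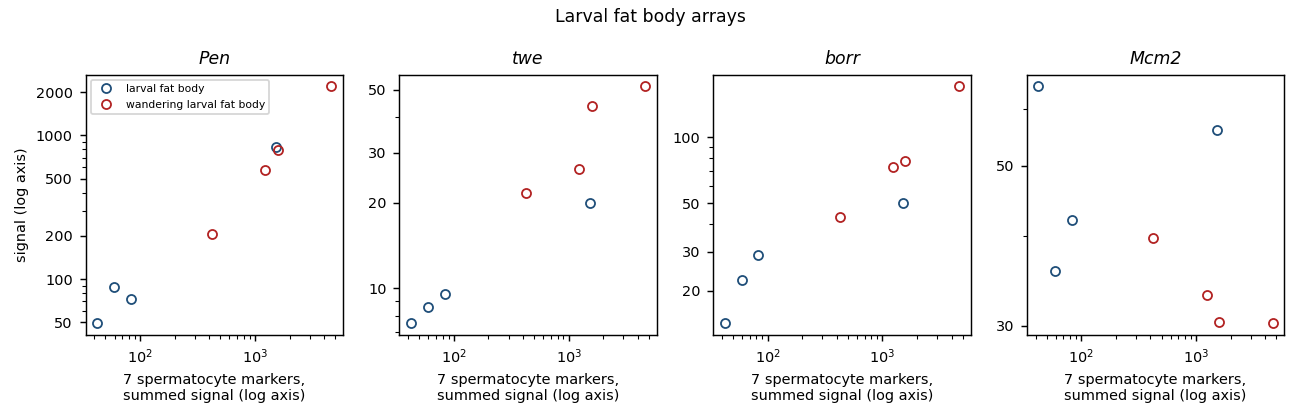
Signals of Pen, twe, borr and Mcm2 (log axes) on each of the 4 feeding (blue) and 4 wandering (red) larval fat body arrays, against the summed signal of 7 spermatocyte markers on the same array. Pen, twe and borr are lowest on the 3 feeding arrays with sums of 42.4 to 83.4, and feeding replicate 4, at 1526, lies among the wandering arrays for Pen.

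S2 cells divide in culture without the tissue around them. Against the whole fly 4 genes were higher, 7 lower and 17 not called, with 14.1% of all tested probe sets higher and 29.3% lower. Both counts were near these shares, so they are no result about the members as a set, and the values below describe single genes. Klp61F, Bub3, aurB and Mcm6 were higher, by 1.34 ± 0.11, 1.31 ± 0.08, 1.30 ± 0.11 and 1.07 ± 0.11. CycJ and twe were lower, by −2.40 ± 0.15 and −2.07 ± 0.12, as were CycB, CycB3, Orc1, Mcm3 and Cdk2, by −1.55 to −1.09. The members' median was −0.41 and that of all probe sets −0.06. Mcm6 lost its call at 0.99 without whole fly replicate 3. Leaving out another array called dup or fzr lower, at −1.03 or −1.04. Klp61F gave 321.8, 340.2, 343.1 and 375.7 in S2 cells and 117.3, 142.5, 111.2 and 153.8 in the whole fly. The groups did not overlap. The median over all tested probe sets went with quantile normalization from −0.042 to 0.329 and the share of higher calls from 32.5% to 53.9%. Under it Mcm5, dup and fzr became lower and Bub1 higher.

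Of 53 further mitosis genes 15 were higher in S2 cells than in the whole fly and 3 lower, and the spindle kinesin gene ncd led at 2.76. Of 29 genes of the meiosis list tested, 2 were higher, 10 lower and 17 not called. Over all tested probe sets 14.1% were higher and 29.3% lower, so the share of lower meiosis genes was near that of the array. The oocyte genes mtrm, gnu and plu had differences of −6.43, −5.32 and −4.31. The whole fly arrays include females and are shared with the ovary and testis comparisons. The ovary arrays had the highest signal of all groups for twe and CycJ.

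S2 cells and the larval CNS are both samples with dividing cells. Of the 28 genes 0 were higher in S2 cells, 6 lower and 22 not called, with 12.5% of all tested probe sets higher and 17.5% lower. The lower count was not far from the array's share. One gene of the 28 passed the low-signal filter only through S2 cells and so could only be called higher. The members' median was −0.32 and that of all probe sets −0.03. CycE was lower by −2.25 ± 0.15 (SE, adjusted p = 3.4e-07), fzr by −2.22 ± 0.10, Mcm3 by −1.65 ± 0.06, CycB3 and Cdk2 by −1.15 each, and borr by −1.07. The fzr arrays of S2 cells gave 114, 128.6, 112.1 and 108.8, all far under the 477.8 to 662.7 of the CNS. Among the uncalled genes aurB differed by −0.02 ± 0.10 and Bub3 by −0.13 ± 0.07. Pen was the gene with the highest value, 0.70 ± 0.06. With quantile normalization the median over all tested probe sets went from −0.053 to 0.097. Mcm2 and Mcm5 were then lower, and Cdk2 was not called.

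The members' patterns over the 34 groups were alike to different degrees. Across group means the median Pearson r was 0.90 over 91 pairs of replication genes, 0.77 over 91 pairs of mitotic genes and 0.77 over 196 pairs with one of each. In the 28 groups left without whole animals, ovary, testis, larval CNS and S2 cells those medians were 0.76, 0.45 and 0.41. These correlations describe group means that share one scaling and, for whole animals, tissues. Among the most alike were fzy, mad2 and Incenp, with each other at 0.98, and Mcm2 with Mcm5 and with RnrL, at 0.97. By the r with their most alike member, fzr with Cdk2 at 0.60 and Bub1 with Orc5 at 0.70 were lowest. CycJ and twe were each other's most alike member, at 0.87.

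**Figure D5:**
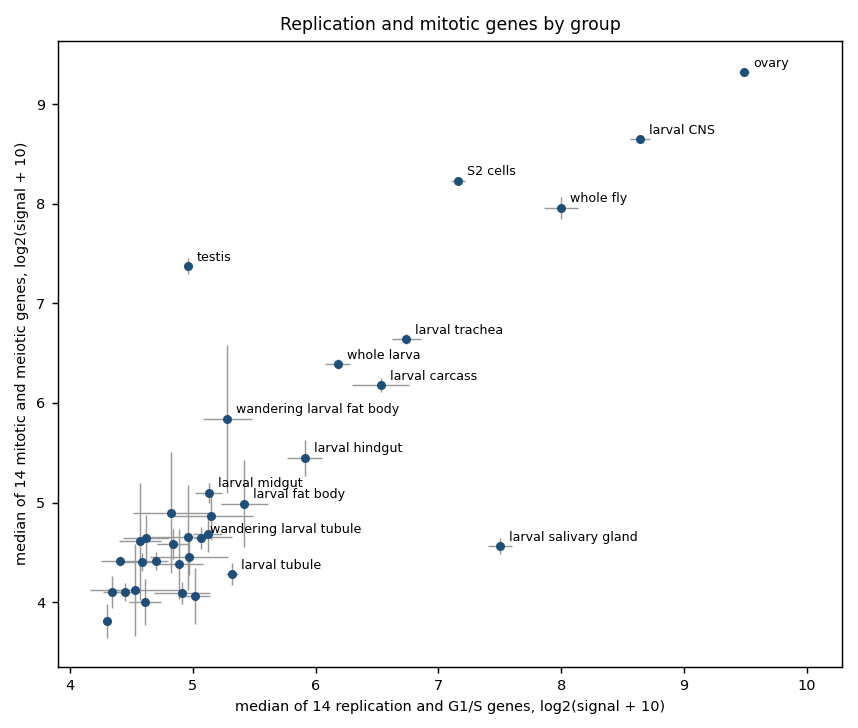
Each point is one of the 34 groups, at the median log2(signal + 10) of its 14 replication and G1/S genes (horizontal axis) and of its 14 mitotic and meiotic genes (vertical axis), with bars for the SD over 4 arrays. Most groups lie on a band from lower left to the ovary at upper right. The larval salivary gland, at 7.50 and 4.56, lies to the right of that band and the testis, at 4.96 and 7.37, above it.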

How the data were processed

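The data are signals of Affymetrix Drosophila Genome 2 arrays, 1 per sample. The deposited intensities are linear, and how the authors summarised probes into them is not given in the sources used here. Their trimmed means over the middle 96% of probe sets were close to equal, and each array was set to their median, 100.004. Controls (183) were left out, which leaves 18769 probe sets. Gene symbols came from the platform annotation: 13647 probe sets had 1 symbol, 402 several and 4720 none listed here, and 13544 were joined to current symbols through the RefSeq gene table. For a gene with several probe sets the brightest one was used. A probe set was tested where its group mean passed the 40th percentile in at least 1 of the groups compared. Log2(signal + 10) values were fitted with limma 3.58.1 in R 4.3.3, one fit per comparison with both groups of 4 arrays, and adjusted over all probe sets tested. A call needs adjusted p under 0.05 and a change of at least 2-fold. Fold changes of dim genes are understated by the pseudocount.

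Replicate numbers are from the labels. A comparison counted as paired only where every same-numbered pair of arrays deviated together. That held in none of 15 comparisons (0 paired), so the main fit has no block. Single pairs did correlate: in the wandering against the feeding fat body replicate 1 reached 0.545, while replicate 2 stood at −0.469. The members, lists and tests were chosen with earlier results of these data known. Named genes are the called members with the largest change each way, cyclins, twe, fzy, fzr and dup, members that go against the majority, and up to 3 list genes each way. Each result was recomputed with arrays quantile normalized or left unscaled, with the pseudocount at 2 or at 40, and with the filter absent or at the 60th percentile. It was also recomputed with the replicate number as a block, with all groups in 1 model, with a gene's probe sets averaged, and without each array in turn. No sequence is printed, since no sequence table of these genes was used here. The planned promoter and protein comparisons were not run for the same reason.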

Additional observations from a re-analysis of the deposited data

Results flagged for a closer look

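Among the 392 sets of 4 arrays checked (28 genes in 14 groups), 26 (6.63%) had 1 array set apart from the other 3 by a gap larger than Dixon's 95% limit, and chance flags about 1 in 20. In dividing samples the high arrays were Mcm6 in ovary replicate 3 at 768.8, CycB and mad2 in ovary replicate 2 at 3086 and 703.7, and fzy in ovary replicate 1 at 616.6. In S2 replicate 4 Incenp stood at 366.8 and fzy at 484.5. In the larval CNS replicate 2 was high for Bub1 and Bub3, at 138.1 and 1078, and replicate 3 for RnrL, at 646.1. The low arrays there were Mcm5 in CNS replicate 4 at 408.4 and Cdk2 in ovary replicate 4 at 426.4. In whole animals Mcm6 was low in whole fly replicate 3 at 260.9, CycE in whole fly replicate 1 at 147.8 and dup in whole larva replicate 4 at 53.7. In the larval salivary gland PCNA was low in replicate 3 at 428.1 and Pen in replicate 2 at 19.2, and CycJ was high in replicate 4 at 3.24. In the remaining tissues Orc5 stood apart in larval fat body replicate 1 at 27.4, CycB in adult midgut replicate 3 at 13.8, CycJ in adult brain replicate 2 at 19.2 and in larval midgut replicate 3 at 13.1, and Cdk2 in wandering fat body replicate 3 at 23.1. The others were aurB in adult fat body replicate 3 at 3.96 and in wandering fat body replicate 1 at 21.3, fzy in adult brain replicate 1 at 2.17 and fzr in larval midgut replicate 3 at 94.0.

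The larval to adult change differed between salivary gland and midgut for 17 of the 28 genes by limma's test of that difference. Over all tested probe sets 11.2% were larger in the gland and 15.2% smaller. Only 16 of the 28 genes passed the low-signal filter in all 4 groups, so the count is a description. In log2 units the gland's change minus the midgut's was 3.03 for Mcm2, 3.50 for Mcm3, 3.12 for Mcm5, 2.82 for Mcm6, 1.76 for Orc1, 1.45 for Orc2 and 1.70 for Orc5. It was 4.83 for PCNA, 1.38 for CycE, 2.26 for Cdk2, 2.00 for dup, 1.35 for Bub3, 3.54 for Cdc6 and 3.84 for RnrL. It was −1.91 for CycB, −1.14 for CycB3 and −1.58 for borr. Values that rest on adult gland means under the pseudocount, such as those of PCNA, Cdc6 and Mcm3, have no order.

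A second probe set of fzy, which the comparisons do not use, had a mean of 38.2 in the adult salivary gland and 5.90 in the whole fly, while the fzy probe set used was near background in that gland.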

How the results depend on the processing

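No called value of a member reversed its sign under any alternative run. Over all comparisons, 399 of 440 member calls were the same under quantile normalization (30 gained, 11 lost), 407 with a pseudocount of 40 (33 lost), 432 with a pseudocount of 2 (8 gained) and 440 with no filter. All 412 were the same with the values as deposited, 409 of 412 with the mean of all probe sets of a gene (3 lost, all of fzy), 380 of 383 with the 60th percentile filter and 407 of 412 with 1 fit of all groups. Leaving out 1 array kept 3702 of 3744. Arrays with the same replicate number were not paired in any of 15 comparisons, where same-numbered deviations correlated at −0.469 to 0.545. With the replicate block 439 of 440 calls were the same, and the exception was twe in the wandering fat body, which left 0 members higher there.

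Counts of members moved as follows. Quantile normalization gave 2 higher in the testis against the whole fly, 2 in the salivary gland against the CNS, 2 in the larval against the adult midgut, and 2 higher and 1 lower in the wandering fat body. A pseudocount of 2 gave 4 lower in the larval against the adult gland, 3 higher in the midgut and 1 higher in S2 cells against the CNS. A pseudocount of 40 gave 0 lower in the CNS against the brain, 0 higher in the gland against the CNS, 0 lower in the larval against the adult gland and 2 higher in the fat body. It also gave 0 higher in the wandering fat body, 4 lower in S2 cells against the whole fly and 1 smaller value in the test between tissues. The 60th percentile filter gave 0 lower in the CNS against the brain, since CycJ was not tested, and 3 higher in the wandering fat body, where 1 fit of all groups gave 5. Leaving out 1 array gave 1 to 2 lower in the larval against the adult gland (2 without adult gland replicate 4), 1 to 2 higher in the midgut (2 without larval replicate 2) and 0 to 5 higher in the wandering fat body.

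Counts over all probe sets moved too. Quantile normalization gave 3032 higher and 2350 lower in the ovary, 2810 higher in the gland against the whole larva, and 3111 higher and 2659 lower in S2 cells against the whole fly. A pseudocount of 2 gave 2315 higher in the gland against the CNS, 2778 lower in the larval against the adult gland, 1913 lower in the fat body, and 922 higher and 1026 lower in the midgut. A pseudocount of 40 gave 955 higher and 2285 lower in the ovary, 1836 lower in the CNS against the whole larva and 1082 against the brain, 1818 lower in the gland against the whole larva, and 780 higher and 892 lower in the larval against the adult gland. It gave 723 lower in the fat body, 349 higher and 400 lower in the midgut, 312 higher and 377 lower in the wandering fat body, 2444 lower in S2 cells, and 1061 larger and 1079 smaller in the test between tissues. The 60th percentile filter, which tests fewer probe sets, gave 2197 lower in the ovary and 2404 in S2 cells. In the wandering fat body 1 fit of all groups gave 1830 higher, and leaving out 1 array 406 to 1532, the highest without feeding replicate 4. The cause of these shifts was not tested.

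Arrays of this kind limit dim genes. CycJ, fzy, borr and CycB in several tissues lay at signals under the pseudocount, where a fold is compressed and has no order. Genes near the 2-fold threshold (RnrL, Mcm5, Orc5, Pen) changed their call with a single array. The planned promoter and protein sequence comparisons were not run.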

Other observations

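Outside the main comparisons, 4 replication and G1/S genes and 4 mitotic genes stood at 25% or more of their own highest group mean in the larval trachea. Mcm6 was at 33.6% there, PCNA at 29.2%, CycD at 30.5%, RnrL at 27.5% and aurB at 25.5%. Bub1, Bub3 and fzr stood at 52.4%, 45.2% and 59.3%. The labels give another amplification kit for that tissue than for most, and no comparison was made with it. In the accessory gland, an adult male tissue, CycD reached 25.6% of its ovary level while PCNA stood at 0.2% and CycB at 0.3%. The activator fzr stood at 68.9% in the adult brain and 46.4% in the adult hindgut. Bub1 stood at 45.7% in the hindgut and 44.7% in the adult midgut.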
